A study of Mus musculus with 75 samples.

Results

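Of 3815 distinct domain boundaries called in pro-metaphase chromosomes of mouse G1E-ER4 cells, 1814 (47.5%) had no late-G1 domain edge within 20 kb. These are called lost boundaries here, and the other 2001 are called kept. A boundary is the start or end of a contact domain in the Hi-C domain lists, which are binned at 10 kb in build mm9, and a start and an end at the same place count once. Lost boundaries were thus chosen by the measured late-G1 domain edges, so their share and their distance to late-G1 edges are descriptions.

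G1E-ER4 is a single subline of the mouse erythroid progenitor line G1E, which lacks GATA1; it was used without induction, so no group here had active GATA1. Every staged group had been arrested with nocodazole at 200 ng/ml over 7 to 8.5 h, washed out and flow-sorted: pro-metaphase (0 min of release), ana/telophase (25 min), early G1 (60 min), mid G1 (120 min) and late G1 (240 min), while unsynchronized cells served as a further ChIP-seq group. Of 75 samples in the series, the lists used here came from 10 Hi-C samples (2 per stage), 13 CTCF ChIP-seq samples (3 of pro-metaphase cells, 2 of every further group) and 12 Rad21 ChIP-seq samples (2 per group). Each list pools the samples of its stage, so replicate spread could not be measured, no p-value was computed, and intervals in parentheses are exact 95% binomial intervals that cover counting error only.

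A contact domain is a stretch of chromatin whose parts touch each other more often than they touch sequence outside it. In interphase, the cohesin ring, of which Rad21 is a core subunit, is thought to extrude chromatin loops until it meets CTCF bound to DNA, so many domain edges lie at sites that hold both proteins. During mitosis condensin compacts the chromosomes, most cohesin leaves the arms, CTCF binding is reduced in many cell types, and interphase domains become faint.

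The lists were of unequal length, which affects every match between them. The pro-metaphase list had 2509 domains with 3815 edges and the ana/telophase list 5531 domains with 7414 edges. The G1 lists had 9210 domains with 11635 edges (early), 10286 with 12752 (mid) and 10899 with 13553 (late). The smallest domain measured 160 kb in each list, and read depth is unknown from the lists. As a background, the same measures were taken at all 248317 positions spaced 10 kb apart between the first and last domain edge of each chromosome.

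Boundaries just inside and just outside the 20 kb limit differed more in their edges at other stages than in late-G1 CTCF. Of the kept boundaries, 836 coincided with a late-G1 edge, 762 lay 10 kb from one and 403 lay 20 kb from one, and 268 lost boundaries lay only 30 kb away. Among those 268, 28.7% had no edge within 20 kb at any of the stages in between, and 56.3% had a late-G1 CTCF peak within 20 kb. The 403 kept boundaries at 20 kb had 7.20% and 62.0%. A mid-G1 edge lay within 20 kb of 40.7% of the 268 and of 78.4% of the 403.

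Most lost boundaries were gone from the lists long before late G1. An edge lay within 20 kb of 634 lost boundaries in ana/telophase (35.0%, interval 32.8 to 37.2), of 390 an hour after release, in early G1 (21.5%, 19.6 to 23.5), and of 324 by mid G1 (17.9%, 16.1 to 19.7). The corresponding shares of all 10 kb positions were 12.1%, 17.7% and 19.1%, so by mid G1 the lost boundaries were near an edge about as often as any position. Kept boundaries had an edge at 78.4%, 84.5% and 86.3% in the same order. Positions that were themselves over 20 kb from a late-G1 edge had one at 5.92%, 7.36% and 7.61%, lower than the lost boundaries at each stage.

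By the last stage at which an edge was found, 916 lost boundaries (50.5%, 48.2 to 52.8) were matched at no later stage. Another 357 (19.7%) were last matched in ana/telophase, 217 (12.0%) in early G1 and the last 324 (17.9%) as late as mid G1. Loss was not always stepwise: 324 lost boundaries (17.9%) were matched at some stage after a stage at which they were not. Part of this was near the background. A match in mid G1 alone was found for 5.02%, and in early G1 alone for 5.79%. Positions over 20 kb from a late-G1 edge had 4.48% and 3.92%, and all positions 6.01% and 4.46%. Early with mid G1 gave 3.75% of lost boundaries, 1.72% of those far positions and 5.62% of all positions. Ana/telophase with mid G1 gave 3.31%, 0.596% and 1.12%. An edge at all 3 intermediate stages was found for 105 lost boundaries, whereas 1340 kept boundaries (67.0%) had one throughout and only 83 (4.15%) had none. Of positions over 20 kb from a late-G1 edge, 84.0% had none, 3.60% were last matched in ana/telophase and 0.804% had one throughout.

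**Figure D1:**
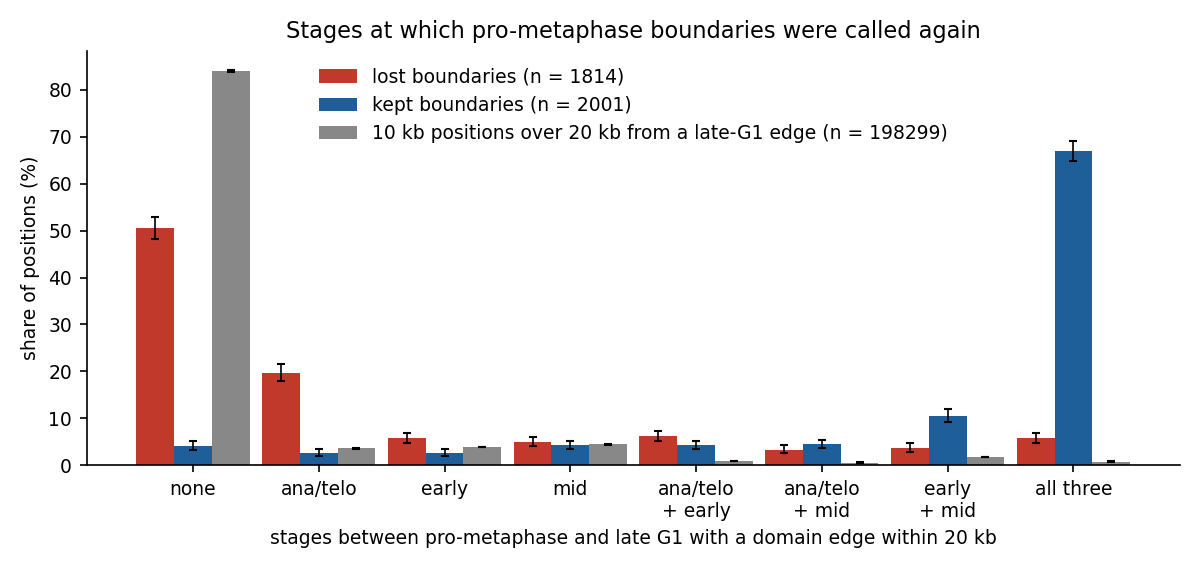
Share of lost boundaries, kept boundaries and 10 kb positions over 20 kb from a late-G1 edge (vertical axis, percent) by the set of intermediate stages with a domain edge within 20 kb (horizontal axis), with 95% binomial intervals. Lost boundaries were mostly without any match (50.5%) or matched in ana/telophase alone (19.7%), whereas 67.0% of kept boundaries were matched at all 3 stages. Of the 10 kb positions, 84.0% were without any match and 3.60% were matched in ana/telophase alone.

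CTCF, the DNA-binding protein that halts cohesin at many interphase boundaries, was found near fewer lost than kept boundaries at every stage. In pro-metaphase, 443 lost boundaries (24.4%, 22.5 to 26.5) had a CTCF peak within 20 kb, against 39.4% of kept boundaries and 13.9% of all positions. In ana/telophase 873 lost boundaries had one (48.1%), against 64.8% of kept boundaries and 31.0% of positions. The share at lost boundaries then stayed level, with 882 (48.6%) in early G1, 917 (50.6%) by mid G1 and 872 (48.1%, 45.7 to 50.4) in late G1. Kept boundaries stood at 67.2%, 69.2% and 67.4% at these stages, and all positions at 31.1%, 32.6% and 30.6%. In asynchronous cells the shares were 866 lost boundaries (47.7%), 67.7% of kept boundaries and 30.6% of positions. The late-G1 share was lower at lost than at kept boundaries on 20 of 20 chromosomes. Kept boundaries lie within 20 kb of a late-G1 edge by definition. Positions over 20 kb from such an edge, as the lost boundaries are, had CTCF at 10.9% in pro-metaphase and 25.5% in late G1.

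CTCF peaks present near lost boundaries in pro-metaphase were still called in late G1. Of the 443 lost boundaries with a pro-metaphase peak, 438 (98.9%) had a peak overlapping it in the late-G1 list, against 783 of 788 kept boundaries (99.4%). Among all positions, 13.9% had a pro-metaphase CTCF peak within 20 kb and 13.6% had CTCF in each of the 6 lists. Positions near a pro-metaphase peak thus mostly had CTCF in every list, and this was not particular to lost boundaries. CTCF was in none of the 6 lists at 831 lost boundaries (45.8%) and in each of them at 435 (24.0%). The corresponding shares were 28.3% and 39.2% of kept boundaries, and 63.8% and 13.6% of all positions. The strongest pro-metaphase CTCF peak near a lost boundary had a median deposited fold enrichment of 16.7, against 16.2 at kept boundaries. In late G1 these medians were 26.6 and 27.9. The fold is the authors' value at the peak summit and describes a peak within its own list. Folds and loop values of several stages are given below for single boundaries. They were not put on a common scale here, so differences between stages are not read as changes in binding or contact.

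Rad21, the cohesin subunit, was nearly absent from the pro-metaphase list at lost boundaries, and the share with a peak was higher at each later stage, as it was at all positions. A Rad21 peak within 20 kb was found at 36 lost boundaries in pro-metaphase (1.98%) and at 393 one stage later, in ana/telophase (21.7%). The count was 436 in early G1 (24.0%), reached 624 by mid G1 (34.4%) and stood at 685 when late G1 was sampled (37.8%, 35.5 to 40.0). All positions gave 0.900%, 10.5%, 11.3%, 18.8% and 21.3%. Kept boundaries gave 3.50%, 31.7%, 35.2%, 50.0% and 54.5%, higher than lost boundaries at each stage. In asynchronous cells 550 lost boundaries (30.3%) had a Rad21 peak, with 16.5% of positions and 46.7% of kept boundaries. Lost boundaries had the lower late-G1 Rad21 share on 18 of 20 chromosomes. Positions over 20 kb from a late-G1 edge had Rad21 at 0.672% in pro-metaphase and 16.9% in late G1.

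Both proteins together were found at 29 lost boundaries before release (1.60%; 0.627% of positions) and at 668 in late G1 (36.8%, 34.6 to 39.1; 20.6% of positions). Kept boundaries had both at 2.55% and 53.7%. The nearest late-G1 CTCF peak lay at a median of 21.7 kb from lost boundaries (19.5 to 23.9 by order statistics) and 10.4 kb from kept boundaries (9.64 to 11.2). For Rad21 the medians were 34.0 kb and 17.1 kb. The shares depend on the distance allowed: with peaks within 10 kb, pro-metaphase CTCF stood at 14.6% of lost boundaries, late-G1 Rad21 at 23.6% and both late-G1 proteins at 23.1%, and within 40 kb pro-metaphase CTCF stood at 38.1%.

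**Figure D2:**
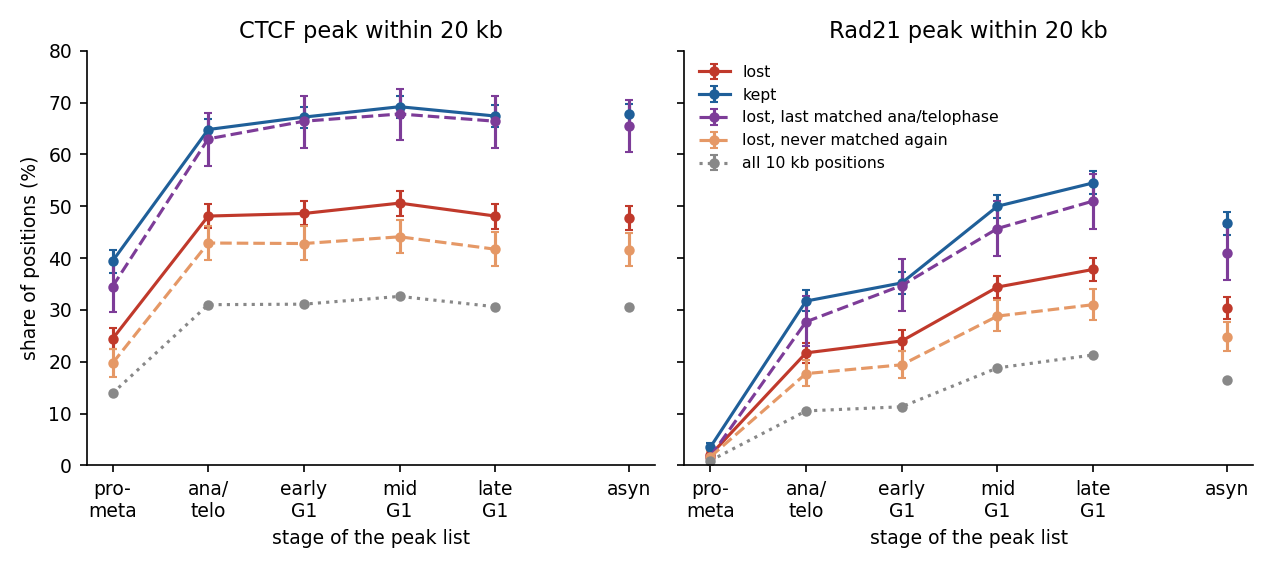
Share of positions (vertical axis, percent) with a CTCF peak (left) or a Rad21 peak (right) within 20 kb, by the stage of the peak list (horizontal axis; asyn, asynchronous cells), with 95% binomial intervals. Lost boundaries lay between kept boundaries and all 10 kb positions at every stage, with late-G1 CTCF at 48.1%, 67.4% and 30.6%, and those last matched in ana/telophase (66.4%) lay near the kept ones.

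The lost boundaries were not uniform in protein content. Those last matched in ana/telophase had late-G1 CTCF within 20 kb at 66.4% and Rad21 at 51.0%, close to the kept boundaries. Those matched at no later stage had 41.7% and 31.0%, those last matched in early G1 47.9% and 37.8%, and those last matched in mid G1 46.0% and 42.3%. Pro-metaphase CTCF followed a similar order across these classes, at 34.5% for the ana/telophase class, 19.7% for boundaries never matched again, 24.4% for early G1 and 26.9% for mid G1.

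The surroundings of lost boundaries were nearly as rich in CTCF as the boundaries themselves. In windows of 20 kb, a late-G1 CTCF peak was found in 33.8% of windows centred on lost boundaries and in 29.5% of windows 100 to 200 kb to either side, a ratio of 1.15. At kept boundaries the centre held 48.6% and the flanks 27.0%, a ratio of 1.80. For lost boundaries never matched again the centre and flanks were 28.9% and 28.8%, so no local maximum was seen there. The ana/telophase class had 47.3% at the centre in flanks of 38.6%, and the mid-G1 class had 34.6% in flanks of 24.2%.

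The pro-metaphase CTCF and late-G1 Rad21 lists gave a similar contrast, and loop anchors did not at every stage. The pro-metaphase CTCF list gave 14.6% at the centre and 12.9% in the flanks of lost boundaries, against 25.8% and 11.1% for kept boundaries. Late-G1 Rad21 gave 23.6% and 19.5% at lost boundaries, against 35.3% and 17.1% at kept boundaries. For loop anchors the ratio of centre to flanks was 1.64 at lost and 1.24 at kept boundaries in ana/telophase, and 1.29 and 1.27 in early G1. It was lower at lost boundaries later, at 1.14 and 1.36 in mid G1 and 1.20 and 1.31 in late G1. Mid-G1 domain edges fell on 10.6% of windows at lost boundaries, below the 13.9% in their flanks, whereas ana/telophase edges fell on 25.6% of windows at the centre and 9.88% in the flanks. The rule itself removes late-G1 edges at the centre, and neighbouring stages share many edges with late G1.

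**Figure D3:**
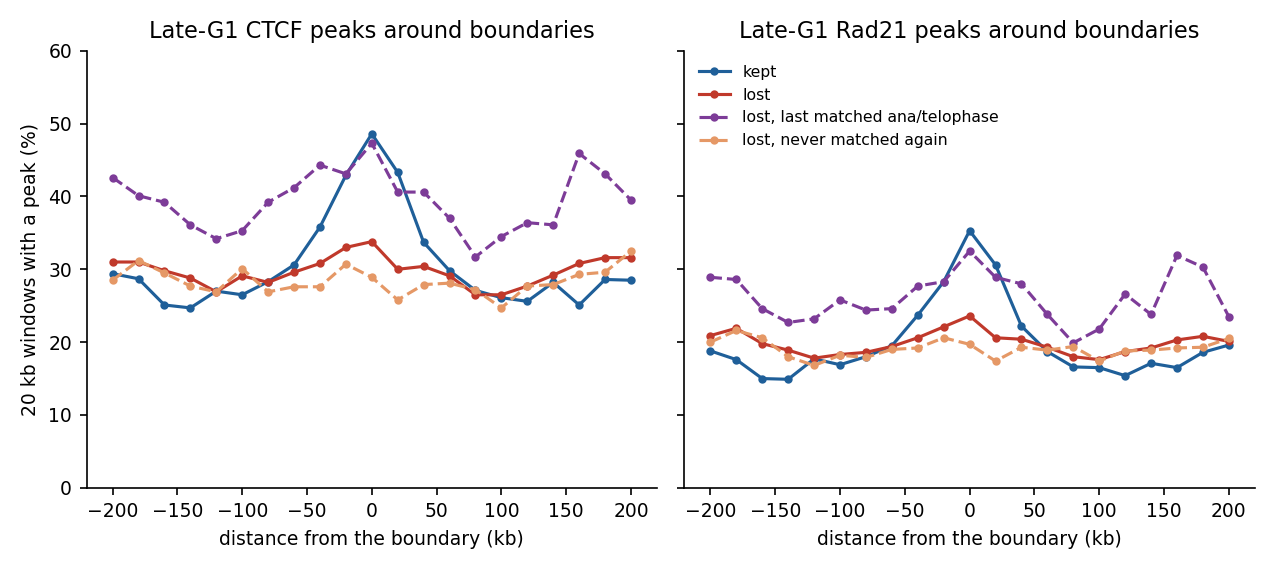
Share of 20 kb windows holding a late-G1 CTCF peak (left) or Rad21 peak (right) on the vertical axis (percent), by distance from the boundary in kb. Kept boundaries showed a local maximum (48.6% for CTCF over flanks of 27.0%), whereas the curve for boundaries never matched again was flat (28.9% over 28.8%).

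Lost boundaries were inside late-G1 domains at a share a little above that of other positions and below that of kept boundaries. In all, 1568 (86.4%, 84.8 to 88.0) were inside at least 1 late-G1 domain, compared with 90.0% of kept boundaries, 82.5% of all positions and 80.2% of positions over 20 kb from a late-G1 edge. Late-G1 domains are nested: 19.1% of lost boundaries lay in 1 domain, 26.6% in 2, 18.7% in 3, 12.1% in 4 and 9.98% in 5 or more. The smallest domain around a lost boundary had a median size of 410 kb (400 to 430) and the largest 1060 kb (1000 to 1100). Positions over 20 kb from a late-G1 edge had a smallest domain of 410 kb and a largest of 1190 kb. Within the smallest domain, 801 of the 1568 (51.1%, 48.6 to 53.6) were more than 25% of its length from both edges, against 58.4% of those positions, so lost boundaries lay somewhat nearer to an edge.

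The median distance to the nearest late-G1 edge was 100 kb (90.0 to 100), with quartiles of 50.0 and 180 kb and a maximum of 2370 kb. It was 200 kb when only domains in no larger domain were used. Positions over 20 kb from a late-G1 edge had a median of 110 kb and quartiles of 60.0 and 210 kb. An excess over these positions was seen at 30 kb, where 14.8% of lost boundaries and 7.50% of positions lay. The shares were 22.5% and 20.3% at distances of 40 to 60 kb, then 15.9% and 20.8% up to 100 kb, 27.4% and 25.5% up to 200 kb, and 19.4% and 26.0% beyond that. The median was 110 kb for boundaries never matched again and for the ana/telophase class, 70.0 kb for the early-G1 class and 60.0 kb for the mid-G1 class.

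A mid-G1 edge was more frequent at lost boundaries than at positions equally far from a late-G1 edge. It was found at 40.7% of those 30 kb away, at 16.2% for distances of 40 to 60 kb, at 11.8% for 70 to 100 kb, at 9.26% for 110 to 200 kb and at 19.6% farther out. All 10 kb positions in these distance classes had one at 25.4%, 9.74%, 4.29%, 4.78% and 6.23%, so both sets were highest at 30 kb. Late-G1 CTCF within 20 kb stood at 56.3%, 49.5%, 44.6%, 52.3% and 36.9% in these distance classes. All positions at the same distances had 40.4%, 32.3%, 27.4%, 27.4% and 12.3%, lower in each class.

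The nearest late-G1 edge lay on the side of the boundary facing away from the pro-metaphase domain more often than on the domain's side. An edge on the domain's side may lie inside the domain or beyond its far end, which were not told apart. This was counted for 1396 lost boundaries that were the start or end only of domains on one side, with 27 ties left out. Of these, 802 (57.4%, 54.8 to 60.1) had the nearest edge on the side facing away. This share was 58.1% at 30 kb, 65.5% at 70 to 100 kb and 46.8% beyond 200 kb.

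Pro-metaphase domains that lost both edges were small. There were 585 of them, with a median size of 210 kb (200 to 220) and quartiles of 180 and 260 kb. The 1140 domains that lost 1 edge had a median of 230 kb (230 to 240) and the 784 that lost none a median of 280 kb (270 to 300). Of domains of 160 to 200 kb, 272 of 808 (33.7%) lost both edges and 19.4% lost none. Both edges were lost by 22.3% of domains of 210 to 300 kb, 12.5% of those of 310 to 500 kb, 12.6% of those of 510 to 1000 kb and 12 of 87 larger ones (13.8%).

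A single late-G1 domain enclosed 363 of the 585 domains (62.1%, 58.0 to 66.0), with a median size of 760 kb for that domain. This share was lower than for domains that lost 1 edge (73.5%, 70.8 to 76.1) or none (74.2%, 71.0 to 77.3). The shares are not like for like, because the same domain was called in late G1 for 77.7% of domains that lost none. By the rule this cannot hold for a domain with a lost edge. The enclosing domain had a median of 530 kb for domains that lost 1 edge and 415 kb for those that lost none. No late-G1 edge lay inside 330 of the 585 (56.4%), against 34.1% of domains that lost 1 edge and 21.6% of those that lost none. This order is partly set by the rule, which puts a late-G1 edge within 20 kb of a kept edge and none that near a lost one. Smaller domains also have less room for an edge. The same domain was called in ana/telophase for 15.7% of the 585, in early G1 for 6.15% and in mid G1 for 3.93%. These shares were 30.4%, 13.2% and 11.1% for domains that lost 1 edge, and 62.8%, 61.6% and 62.6% for those that lost none. A late-G1 loop nonetheless joined the 2 edges of 105 of the domains that lost both (17.9%, 14.9 to 21.3). This compares with 22.0% and 24.6% of domains that lost 1 edge and none. In early G1 a loop joined the 2 edges of 85 domains that lost both (14.5%), and in mid G1 of 84 (14.4%).

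**Figure D4:**
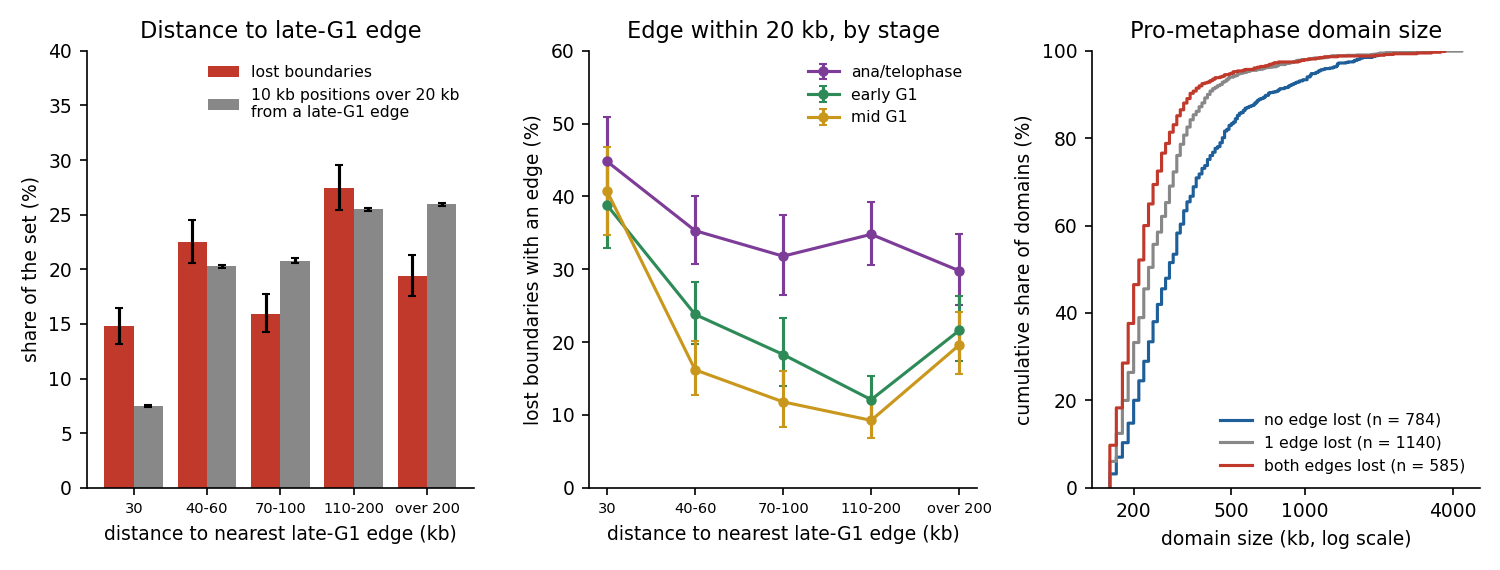
Left, share of lost boundaries and of 10 kb positions over 20 kb from a late-G1 edge by distance to the nearest late-G1 edge; middle, share of lost boundaries with an edge within 20 kb at each intermediate stage by that distance; right, cumulative share of pro-metaphase domains by size (log scale) and by the number of edges lost. Bars and whiskers give percent with 95% binomial intervals; the excess of lost boundaries was largest at 30 kb (14.8% against 7.50%), and domains that lost both edges were smallest (median 210 kb).

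Chromatin loops are pairs of distant anchors in frequent contact, and interphase loops typically join CTCF sites held by cohesin. The loop lists came from the same Hi-C samples as the domain lists, so they are described here and are not independent of the rule. A loop anchor lay within 20 kb of 12 lost boundaries in pro-metaphase (0.662%; 0.396% of all positions), where only 84 loops were called. It lay near 221 in ana/telophase (12.2%; positions 3.83%) and near 827 in early G1 (45.6%; positions 21.0%). By mid G1 the share was 49.4% (positions 26.6%), and in late G1 it was 951 boundaries, or 52.4% (positions 28.9%). Kept boundaries had shares of 0.800%, 11.4%, 48.7%, 58.1% and 59.8%. The late-G1 share was lower at lost than at kept boundaries on 13 of 20 chromosomes.

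Loops also bridged lost boundaries. A boundary counted as spanned when the 2 anchors of a loop lay on opposite sides of it and neither was within 20 kb. In late G1 this held for 684 lost boundaries (37.7%), for 15.2% of kept boundaries and for 28.0% of all positions. Kept boundaries lie at late-G1 edges by definition; positions over 20 kb from such an edge, as the lost boundaries are, were spanned at 31.5%. In ana/telophase the shares were 1.87%, 0.750% and 1.95%, in early G1 22.7%, 5.25% and 14.8%, and in mid G1 33.9%, 13.2% and 24.8%. Positions over 20 kb from a late-G1 edge had 2.26%, 17.3% and 28.0% at these stages. The late-G1 share was higher at lost than at kept boundaries on 19 of 20 chromosomes. By distance from a late-G1 edge the shares were 17.5%, 29.2%, 51.2%, 52.7% and 30.7% in the same 5 classes. Positions at the same distances had 17.5%, 26.5%, 40.3%, 45.7% and 18.5%, so the lost boundaries were level with them up to 60 kb and higher farther out.

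The class last matched in ana/telophase had the highest values in both measures, in surroundings that were also rich in loop anchors. In late G1 a loop anchor lay near 74.8% of it and 53.2% of it was spanned, compared with 45.9% and 38.6% of boundaries never matched again and 50.0% and 23.5% of the mid-G1 class. In 20 kb windows its late-G1 loop anchors stood at 54.3% in the centre and 44.8% in the flanks, a ratio of 1.21, against 38.5% and 32.1% for all lost boundaries, a ratio of 1.20. In the ana/telophase list its windows held a loop anchor at 12.6% of centres and 5.32% of flanks, against 6.67% and 4.07% for all lost boundaries.

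Loop anchors at lost boundaries went with CTCF and Rad21. Of the 668 lost boundaries with both proteins in late G1, 89.7% lay near a late-G1 loop anchor, compared with 59.3% of 204 with CTCF alone and 23.9% of 925 with neither. At kept boundaries these shares were 82.1%, 52.2% and 25.9%. Late-G1 stripes, lines of contact that run from a single anchor, started within 20 kb of 190 lost boundaries (10.5%; 4.73% of positions), against 18.4% of kept boundaries.

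**Figure D5:**
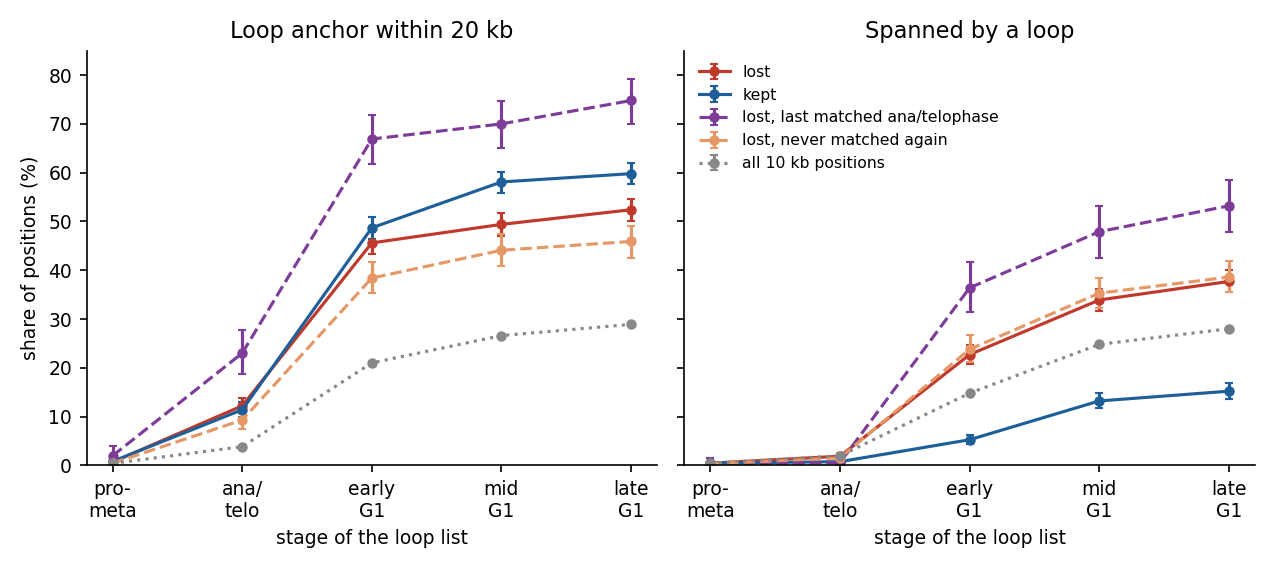
Share of positions (vertical axis, percent) with a loop anchor within 20 kb (left) or spanned by a loop (right), by the stage of the loop list (horizontal axis), with 95% binomial intervals. In late G1 an anchor lay near 52.4% of lost and 59.8% of kept boundaries, and 37.7% of lost boundaries, 15.2% of kept boundaries and 28.0% of all positions were spanned.

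Individual boundaries were taken by fixed rules, and chromosome and position are given in mm9. The lost boundaries farthest from any late-G1 edge were at 5620000 and 5860000 on chromosome 12, the start and end of a single 240 kb pro-metaphase domain, which lay 2370 and 2130 kb from the nearest late-G1 edge. Next were 114500000 on chromosome X (2050 kb) and 101620000 and 101630000 on chromosome 1 (1800 and 1790 kb). None of these 5 had a CTCF or Rad21 peak within 20 kb in any list, a loop anchor, or a late-G1 domain around it.

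Strong CTCF sites were also among the lost boundaries. The boundary at 46640000 on chromosome 4 had pro-metaphase CTCF with the highest fold near any lost boundary, 75.1, and its strongest peak had fold 42.5, 54.0, 48.8 and 32.3 at the 4 later stages in order. Rad21 was not called there in pro-metaphase and had fold 5.82, 9.33, 21.1 and 14.4 at the later stages. Its nearest late-G1 edge was 50 kb away, and 6 late-G1 loops had an anchor within 20 kb. The next by pro-metaphase CTCF were 120340000 on chromosome 9 (fold 67.6, late-G1 edge at 30 kb), 77340000 on chromosome 11 (60.5, 40 kb), 73420000 on chromosome 8 (59.5, 700 kb) and 114390000 on chromosome 5 (58.3, 200 kb). The last of these had no edge within 20 kb at any later stage, although CTCF was called at fold 54.6 and Rad21 at fold 22.1 in late G1.

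Boundaries with both proteins already in pro-metaphase were rare. The strongest by CTCF was at 117100000 on chromosome 11, with CTCF fold 56.1 and Rad21 fold 3.34 in pro-metaphase. In late G1 the folds there were 49.8 and 31.4, and 4 loops spanned it. The boundary at 79040000 on chromosome 11 had pro-metaphase folds of 48.0 and 6.02. In late G1 it had CTCF fold 57.5 and Rad21 fold 44.5, 4 loop anchors with a highest observed over expected value of 8.06, and 4 nested late-G1 domains around it, with the nearest edge 180 kb away. The highest late-G1 Rad21 fold at any named lost boundary was 46.9, at 88140000 on chromosome 6, which had CTCF fold 11.2 before release, 49.2 in late G1, and lay 80 kb from a late-G1 edge.

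An edge at each stage through mid G1 and none in late G1 was found for 105 lost boundaries (5.79%). Of positions over 20 kb from a late-G1 edge, 0.804% had an edge at each of these intermediate stages. The farthest of the 105 from a late-G1 edge were 117140000 (970 kb) and 116960000 (790 kb) on chromosome 1, the edges of a 180 kb domain. Edges lay 10 kb away in ana/telophase and exactly there in early and mid G1, and neither edge had CTCF, Rad21 or a loop anchor in any list. At 53470000 on chromosome 19 (400 kb) the edge was exact in all 3 intermediate stages. CTCF there had fold 9.66 in pro-metaphase and 22.5 in mid G1, Rad21 had fold 18.6 in late G1, and 3 late-G1 loops were anchored there.

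At pro-metaphase loop anchors, the highest observed over expected value near a lost boundary was 13.8, at 21870000 on chromosome 10. The highest value of a loop anchored there was 48.3 in the ana/telophase list and 13.1 in the late-G1 list. CTCF was not called there in pro-metaphase and had fold 8.25 in ana/telophase and 7.10 in late G1, and Rad21 was in none of the lists. At 21570000 on chromosome 12 the values were 4.87 in pro-metaphase and 72.7 in late G1, with no CTCF peak in any list. Rad21 was called there in ana/telophase (fold 4.01) and late G1 (fold 4.77) only.

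Among pro-metaphase domains with both edges lost, the longest ran from 81150001 to 84870000 on chromosome 10, 3720 kb, with 17 late-G1 edges inside it. The next were 3570 kb on chromosome 12, from 88850001 to 92420000, with 22 late-G1 edges inside, and 3280 kb on chromosome 14, from 54080001 to 57360000, with 26. Among the shortest, of 160 kb, the one from 13360001 to 13520000 on chromosome 1 lay within a late-G1 domain of 540 kb. Its edges had late-G1 CTCF folds of 24.7 and 34.4 and Rad21 folds of 4.01 and 23.1, and a late-G1 loop joined them. No late-G1 loop joined the edges of the other named domains of 160 kb, both on chromosome 1. The domain from 14840001 to 15000000 lay within no late-G1 domain. Its edges had late-G1 CTCF folds of 20.6 and 14.7 and Rad21 folds of 6.65 and 9.03. The domain from 22680001 to 22840000 lay within a late-G1 domain of 620 kb. Neither of its edges had a late-G1 CTCF or Rad21 peak within 20 kb.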

How the data were processed

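CTCF and Rad21 ChIP-seq and Hi-C of sorted stages were used as pooled lists, and samples were grouped by assay and stage from their titles. The submitters' processing notes name MACS2 2.1.0, Bowtie 0.12.7, bedtools 2.27.1 and SAMtools 1.7 for ChIP-seq, HiC-Pro with Bowtie2 for Hi-C, and build mm9. Callers of the domain, loop and stripe lists were not given in the sources used here. Per the peak names, the authors merged and downsampled the replicates of each of the 12 peak lists. The deposited peaks carry a fold enrichment (ratio), a −log10 q and a score, as the authors' caller gave them. The deposited loops carry an observed and an expected contact signal and a p-value, per the file headers, and the deposited stripes an observed over expected ratio, normalized in a way that was not given in the sources used here. Depth per sample is unknown, and a shorter list may come from fewer reads.

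Distances, overlaps and domain containment were computed in Python 3.11.15 with SciPy 1.17.1, pandas 2.3.3 and NumPy 2.4.6; Matplotlib 3.10.9 drew the plots. Functions on intervals passed 4 of 4 tests on simulated data (1500 peaks), with bedtools 2.31.1 among the references. All 20 chromosomes in the lists were used, with edges and peaks matched within 20 kb; a peak persisted if it shared sequence with a peak of the other list. Medians have 95% order-statistic intervals. Named boundaries were the 5 farthest from a late-G1 edge, the 5 with the highest pro-metaphase CTCF fold, up to 5 with pro-metaphase CTCF and Rad21, the 5 farthest among those matched at every intermediate stage, the 5 at pro-metaphase loop anchors with the highest observed over expected value, the 5 with the highest late-G1 Rad21 fold, and the 3 longest and 3 shortest domains with both edges lost; 1 chromosome was left out of this naming. Boundaries, measures and rules were chosen with earlier results of these data known. No mm9 genome or annotation was used here, so genes and sequences are not given. Capture-C, RNA polymerase II and input samples were not analysed here.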

Additional observations from a re-analysis of the deposited data

How the results depend on the processing

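Matching within 10 kb or 40 kb, using only domains in no larger domain, merging edges within 20 kb, other peak distances, stricter peaks and asynchronous peaks gave 60 alternative values, of which 31 stayed within the interval of the reported value and 29 did not. With edges matched within 10 kb, 58.1% of boundaries were lost, 57.1% of these were never matched again and 15.7% were last matched in mid G1; pro-metaphase CTCF stood at 26.6%, late-G1 CTCF at 50.6%, the share inside a late-G1 domain at 88.0% and the median distance at 70.0 kb. With 40 kb, 36.0% were lost, 41.8% never matched again, 21.4% last matched in mid G1 and 83.5% inside a late-G1 domain, with a median distance of 130 kb. With only domains in no larger domain, these were 65.4%, 57.3%, 13.4%, 89.6% and 200 kb. With peaks within 10 kb, pro-metaphase CTCF, late-G1 CTCF, late-G1 Rad21 and both late-G1 proteins stood at 14.6%, 33.8%, 23.6% and 23.1%, and within 40 kb at 38.1%, 63.1%, 54.0% and 53.0%. A fold of at least 5 gave 35.2% for late-G1 Rad21. Asynchronous peaks gave 47.7% in place of pro-metaphase CTCF, 30.3% for Rad21 and 30.2% for both. Merged edges and a −log10 q of at least 5 moved no value beyond its interval. The matching distance and the nesting of domains decide how many boundaries are called lost by definition; the cause of the other shifts was not tested. No paired analysis was possible because the lists combine the replicates of a stage, and for the same reason no replicate could be left out. List length and depth limit what is called lost: an edge missing from a list may be present below the authors' threshold.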

Other observations

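Lost boundaries were unevenly placed along the chromosomes; positions on 1 chromosome are not named. The lost share ran from 40.8% of the boundaries on chromosome 13 to 57.5% on chromosome 10. The boundary that followed a lost one was itself lost in 53.9% of cases, against 41.8% after a kept one; neighbouring edges often belong to the same domain. The longest unbroken run of lost boundaries on the other chromosomes, 15 in a row, stretched over 9640 kb of chromosome 15 from 9570000 to 19210000. A run of 14 on chromosome 12 covered 2320 kb from 83760000 to 86080000, and a run of 11 on chromosome 1 covered 5510 kb from 108720000 to 114230000. The run on chromosome 1 holds the boundary at 111610000, whose edge was called at the same 10 kb position in all 3 intermediate stages and which lay 510 kb from a late-G1 edge, inside a late-G1 domain of 3620 kb.

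Boundaries that closed more domains were lost less often. The lost share was 49.2% for edges of 1 pro-metaphase domain, 45.4% for edges shared by 2 and 29.6% for edges shared by 3 or more. It was 47.1% for positions that were only starts, 48.4% for those that were only ends and 46.8% for those that were both. The direction of loops was counted for the 1423 lost and 1557 kept boundaries that were only starts or only ends. In late G1, loops anchored within 20 kb ran into the pro-metaphase domain at 35.7% of these lost boundaries and away from it at 27.1%. The shares were 43.2% and 36.2% at these kept boundaries.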
